A study of Drosophila melanogaster with 30 samples.

Results

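The comparison described here asks whether gene expression in first-generation (F1) male fruit flies depended on the food of the parents and the food of the sons being the same. It uses 12 of the 30 arrays of the series, the 12 F1 arrays, chosen by the food labels alone. The matched flies were reared on the same kind of food as their parents and the mismatched flies on the other kind, and each side has 6 arrays in 2 groups of 3. Groups are written below as the parents' food and then the sons' own food, with P for poor and R for rich. The matched groups were P-P (poor-raised sons of poor-raised parents) and R-R (rich-raised sons of rich-raised parents). The mismatched groups were R-P (poor-raised sons of rich-raised parents) and P-R (rich-raised sons of poor-raised parents). The contrast is the mean of the 2 matched groups minus the mean of the 2 mismatched groups, which is 0.5 times the interaction of own and parental food. Effects that depend only on the own food, or only on the parents' food, cancel in it.

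All groups came from 1 laboratory stock of Drosophila melanogaster founded with flies from the field, and all flies were adult virgin males that were frozen directly. None of the sources used here gives ages, the composition of either food, the number of flies per sample or any batch of rearing, extraction or hybridization. RNA was measured on Affymetrix Drosophila Gene 1.0 arrays, 3 arrays per group in 10 groups over 3 generations. Whether the 3 samples of a group are separate cultures is not stated, so the p-values below reflect sample-to-sample spread that may be technical in part. The deposited values were made with GCRMA, a method that corrects background and normalizes between arrays, and were taken as log2 values, so a difference of 1 stands for a doubling or halving. The labels name no dissected tissue, and in such bulk RNA fewer cells of a type and less RNA per cell cannot be told apart.

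Insects adjust digestion, detoxification, storage and cuticle formation to the food on which they develop, through insulin and TOR signalling, the fat body and the gut. Midgut cells release trypsins, maltases, amylases, mannosidases and lipases, and bind sterols with Npc2 proteins, and transcription of these genes changes with the diet. Mothers and fathers can also influence offspring through egg provisioning, small RNAs and chromatin, and a matching effect is one in which the response to the own food depends on what the parents ate.

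Some arrays stood apart in marker and list genes, which were chosen with earlier results of these data known. Ovary and yolk genes averaged 2.58 on R-P replicate 2, against 0.563 to 0.639 on the 11 other F1 arrays (38 genes). On the same array the testis list averaged 3.17 against 3.30 to 3.47 (29 genes), and the accessory gland list 5.37 against 5.54 to 5.77 (40 genes). The yolk protein gene Yp1 read 5.24 there and 0.20 to 0.74 on the others. Cuticle genes averaged 0.638 and 0.615 on R-R replicates 1 and 3, against 0.896 to 1.05 on the 10 other F1 arrays, R-R replicate 2 among them at 0.940 (91 genes). Muscle genes averaged 5.03 and 5.23 on those 2 arrays and 5.41 to 5.63 on the others (24 genes). The 10 genes listed as larval or pupal markers averaged 0.690 and 0.675 there and 0.984 to 1.58 on the others. That gap lay mainly in Lsp2 (group mean 4.47 in R-R, 6.65 to 6.95 elsewhere) and Fbp2 (2.07 against 3.57 to 4.21). The Sgs and Eig71E genes of the list were dim in every group, and Sgs3 was highest in R-R (0.427 against 0.24 to 0.417). Median differences between matched and mismatched males over the marker lists ran from -0.166 for ovary and yolk genes (0.003 without R-P replicate 2) to 0.11 for 8 Y-linked and male dosage genes, with 0 members called in limma and at most 1 per list at an unadjusted p under 0.05. Values below keep these arrays, and values without them follow where they differ most. Without replicates 1 and 3, R-R has 1 array, which is then assumed to vary like the other groups. Those 2 arrays were picked because cuticle and muscle genes were low on them. A shrinking of negative differences of these genes without the 2 arrays therefore follows from that choice.

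CG9568, a protein-coding gene to which no function is assigned here, was the one probe set of 15309 that differed between matched and mismatched sons at an adjusted p under 0.05 (limma with Benjamini-Hochberg adjustment over all probe sets), which is 0.00653% of those tested. It read 5.64, 4.58 and 4.56 in P-P males and 6.05, 5.32 and 5.39 in R-R males, against 3.02, 2.82 and 3.26 in R-P males and 4.91, 4.64 and 4.06 in P-R males. The R-P arrays lay below all others, while the P-R arrays overlapped those of P-P. Matched males averaged 5.26 and mismatched males 3.79, a difference of 1.47 ± 0.20 (SE of the model, 6 arrays each), or 2.77-fold on the log2 scale, with a 95% interval of 1.05 to 1.89 and an adjusted p of 0.00168 in limma.

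The response to the own food differed between sons of the 2 kinds of parents. In sons of rich-raised parents CG9568 averaged 3.03 ± 0.22 after poor food (R-P) and 5.59 ± 0.40 after rich food (R-R, SD, n = 3 each), a fall of 2.55 ± 0.29 on the log2 scale (own-food difference -2.55, adjusted p = 9.13e-06 in limma). In sons of poor-raised parents it averaged 4.93 ± 0.62 after poor food (P-P) and 4.54 ± 0.43 after rich food (P-R), and the own-food difference of 0.39 ± 0.29 did not pass (adjusted p = 0.998 in limma). Read by the parents' food, P-P minus R-P was 1.89 ± 0.29 (adjusted p = 0.0085 in limma, a comparison that calls 0.0131% of probe sets), and this call was lost without R-P replicate 2 (1.79, adjusted p = 0.136) and in 5 of 16 alternatives in all (adjusted p up to 0.154). P-R minus R-R was -1.05 ± 0.29 (adjusted p = 0.379 in limma, where 0.0523% of probe sets are called). Ordered by level the groups ran R-R, P-P, P-R and R-P, and neighbours among the first 3 overlapped in their arrays.

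**Figure D1:**
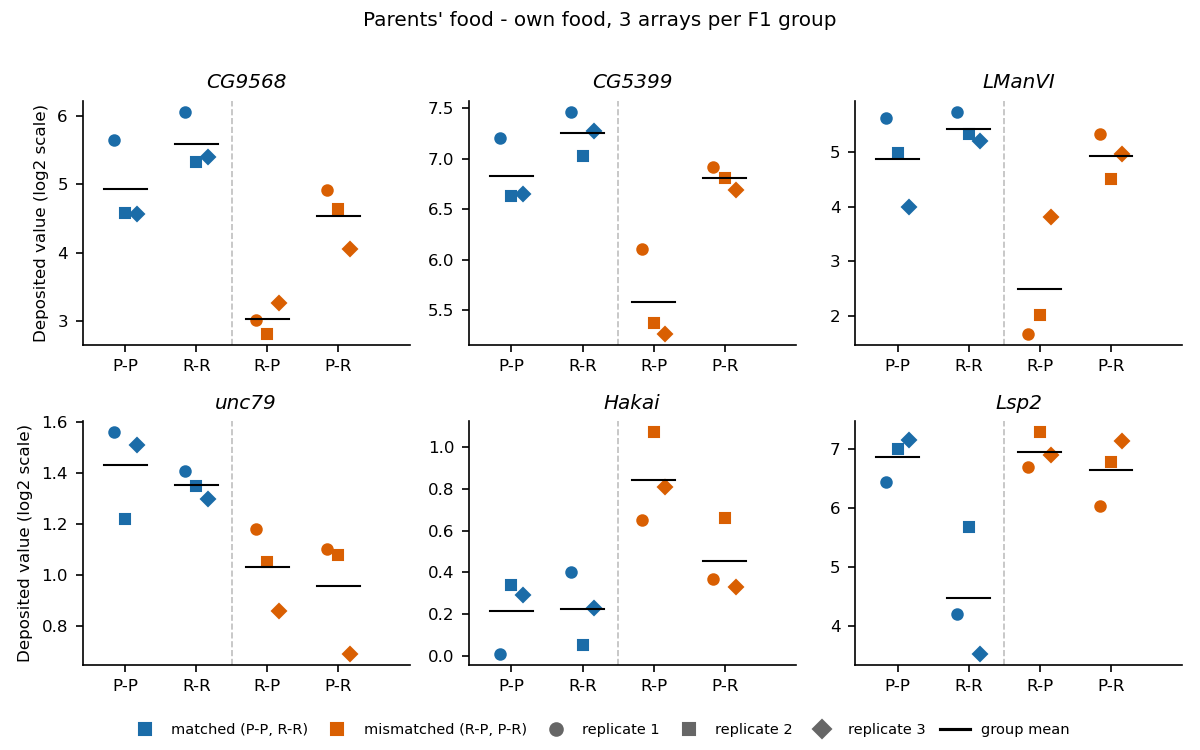
Deposited value on the log2 scale of 6 genes on the 12 F1 arrays, with matched groups (P-P, R-R) in blue left of mismatched groups (R-P, P-R) in orange, symbols for the replicates and lines for group means. CG9568 and CG5399 are lowest on the 3 R-P arrays, unc79 separates the 6 matched from the 6 mismatched arrays, and Lsp2 is low on the R-R arrays alone.

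The level of CG9568 on R-P arrays lay below that on every other array of the series. The 3 R-P arrays read 2.82 to 3.26, and the 18 arrays of the F0 and F2 generations 3.52 to 5.52. Poor-raised and rich-raised F0 males averaged 4.04 ± 0.50 and 4.28 ± 0.17 (SD, n = 3 each). F2 males, whose F1 parents were all rich-raised, averaged 4.18 ± 0.13 in P-R-P, 5.05 ± 0.18 in R-R-R, 4.48 ± 0.40 in R-R-P and 4.97 ± 0.48 in P-R-R, where the letters give the food of grandparents, parents and the flies themselves. The own-food difference of CG9568 was -0.25 in F0, -0.79 in F2 after poor-raised grandparents and -0.57 in F2 after rich-raised grandparents, all smaller in size than the -2.55 of F1 sons of rich-raised parents.

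**Figure D2:**
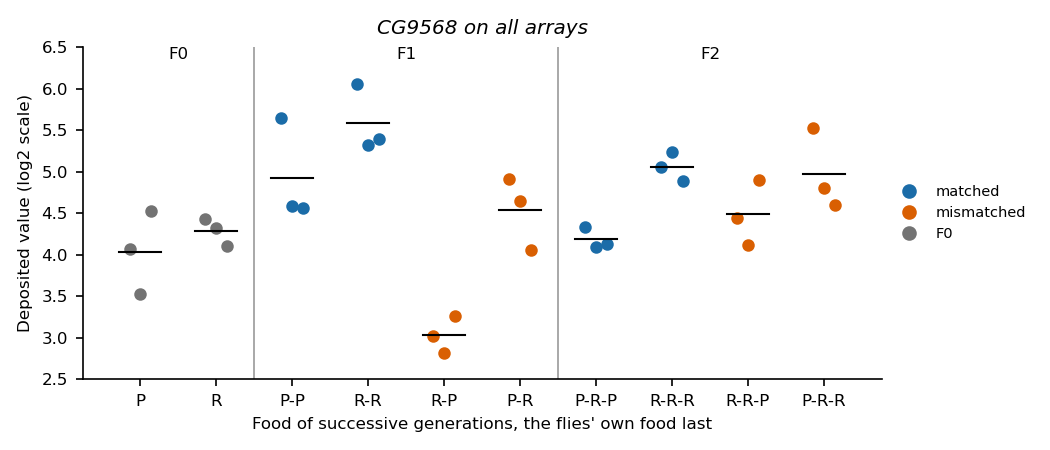
Deposited value of CG9568 on the log2 scale on all 30 arrays, by the food of successive generations with the flies' own food last, and group means as lines. The 3 R-P arrays at 2.82 to 3.26 lie below the other 27, and no group of F0 or F2 males comes as low.

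The call depended on the arrays used. Without R-P replicate 2, the array with ovary transcripts, CG9568 differed by 1.42 ± 0.22 (adjusted p = 0.0104 in limma) and again was the only probe set called. Without R-R replicates 1 and 3 the difference was 1.34 ± 0.25 and was no longer called (adjusted p = 0.202 in limma), and without all 3 arrays it was 1.285 (adjusted p = 0.345). With the 12 F1 arrays fitted alone, without the spread of the F0 and F2 groups, the difference of 1.47 was not called either (adjusted p = 0.0898 in limma). Over all 22 alternatives it ranged from 1.285 to 1.565 with adjusted p from 3.14e-04 to 0.345, and 19 of the 22 called it. None of the 6 genes next to CG9568 in the RefSeq annotation (assembly Release 6, used for names and order only) passed. They were CG17906, CG18661, Try29F, CG13102, Rcd-1r and CG9582, with differences of -0.16 to 0.31 and unadjusted p from 0.0652 to 0.559.

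The genes whose profiles over the 12 F1 arrays were most like that of CG9568 were looked up after its values were seen, and the correlations describe points that share the same arrays. They were CG5399 (Pearson r = 0.930, n = 12 arrays), CG15255 (0.925), the maltase gene Mal-A3 (0.923), the lysosomal alpha-mannosidase gene LManV (0.908) and the tetraspanin gene Tsp29Fb (0.904). LManVI, a further alpha-mannosidase gene, came at 0.893, and mesh, which encodes a component of septate junctions in the gut, also at 0.893.

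Across the other probe sets, matched and mismatched sons differed about as often as the null distribution of p-values predicts. An unadjusted p under 0.05 was reached by 745 probe sets (4.87%), of which 476 were higher in matched males (3.11%) and 269 lower (1.76%), against 765 expected by chance. Bins of 0.05 in p held 696 to 811 probe sets each. Without R-P replicate 2 the count at an unadjusted p under 0.05 was 635 (4.15%), and without R-R replicates 1 and 3 it was 553 (3.61%). The own food, averaged over both kinds of parents, gave another picture in the same males, with 93 probe sets called (0.607%), 22 higher and 71 lower in poor-raised males, and 1206 at an unadjusted p under 0.05 (7.88%). The parents' food on average was called for 3 probe sets (0.0196%).

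**Figure D3:**
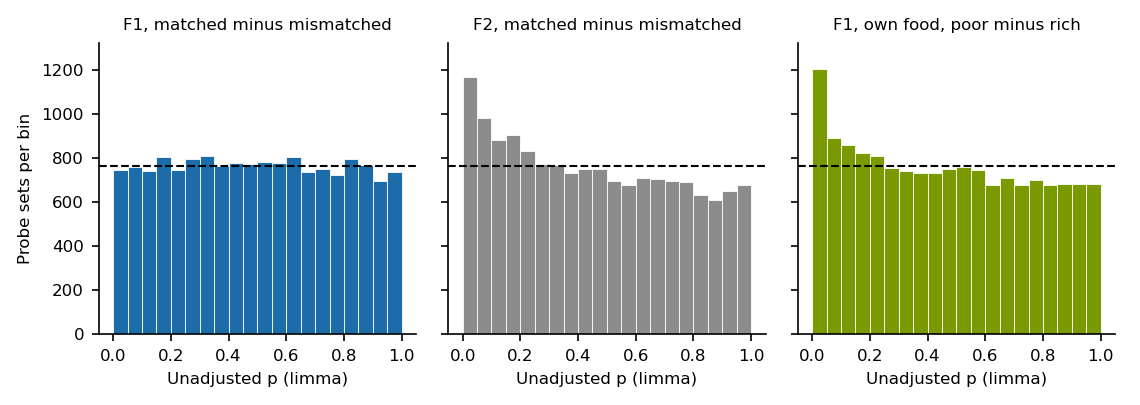
Number of probe sets in each bin of 0.05 of the unadjusted limma p for 3 contrasts, with the dashed line at the 765 probe sets per bin of a flat distribution. The F1 matched-minus-mismatched panel stays between 696 and 811, while the lowest bin holds 1169 probe sets for the F2 contrast and 1206 for own food in F1.

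The arrays set limits on what could have gone unseen. The median difference was 0.01, the median size of a difference 0.08 and the median half-width of the 95% interval 0.234 on the log2 scale. For 13536 probe sets (88.4%) the whole interval lay between -0.5 and 0.5, and for 15129 (98.8%) between -1 and 1. Only 4720 of the 15309 probe sets read over 2 on at least 3 arrays. Many of these intervals thus belong to dim probe sets, where a real change may not show. The contrast is 0.5 times the interaction, so bounds on the difference between the 2 own-food responses are wider than these. Interval half-widths ran from 0.126 to 2.24, so for the most variable probe sets a change of several-fold was not detectable. Differences over 1 in size were found for 11 probe sets and over 0.5 for 114.

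A difference between matched and mismatched sons can come from any of the 4 groups lying away from the other 3, and for each probe set the group farthest from the mean of the other 3 was counted as lying apart. Among the 100 probe sets of the largest difference in size, R-P lay apart in 54, R-R in 35, P-P in 6 and P-R in 5. Over all probe sets the same shares were 30.0% for R-P, 26.3% for R-R, 22.6% for P-P and 21.1% for P-R. R-P and R-R hold the 3 arrays that stood apart, and the part of those arrays in these shares was not tested.

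After CG9568 the smallest adjusted p was shared by CG5399 and by 4 probe sets without a gene symbol that hold the same values on every array. CG5399 read 7.20, 6.63 and 6.65 in P-P males and 7.46, 7.03 and 7.27 in R-R males, against 6.11, 5.37 and 5.27 in R-P males and 6.92, 6.81 and 6.69 in P-R males. As with CG9568, the R-P arrays were lowest and P-R overlapped P-P. The difference was 0.845 ± 0.15 (adjusted p = 0.0718 in limma), made up of an own-food difference of 0.02 in sons of poor-raised parents and -1.67 in sons of rich-raised parents. The 4 probe sets with shared values read 1.49, 1.89 and 1.09 on the P-R arrays and 0.20 to 0.66 on the other 9, a difference of -0.66 ± 0.13 (adjusted p = 0.0718 in limma). Here P-R was the group apart. No probe set other than these and Hakai had an adjusted p under 0.1, which 7 probe sets of 4 distinct profiles reached.

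Hakai encodes an E3 ubiquitin ligase that is also part of the complex placing m6A on messenger RNA. It read 0.01, 0.34 and 0.29 in P-P males and 0.40, 0.05 and 0.23 in R-R males, against 0.65, 1.07 and 0.81 in R-P males and 0.37, 0.66 and 0.33 in P-R males. The mismatched arrays were higher but overlapped the matched ones, and the difference of -0.43 ± 0.09 did not pass (adjusted p = 0.0964 in limma). These values lie near or below the array medians of 0.82 to 0.94, so Hakai was measured at the dim end of the arrays.

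The next genes with positive differences did not pass, with adjusted p of 0.212 to 0.455 in limma. The mucin-related gene Mur29B differed by 0.76 ± 0.17, CG44251 by 0.67 ± 0.16, CG13309 by 0.42 ± 0.10 and shams, which encodes a xylosyltransferase acting on Notch, by 0.40 ± 0.10. The copper transporter gene Ctr1B differed by 0.48 ± 0.13, with 1.37, 0.97 and 1.51 in P-P males and 0.43 to 0.86 on the other 9 arrays. The gene unc79, whose product belongs to the NALCN sodium leak channel complex of neurons, read 1.56, 1.22 and 1.51 in P-P males and 1.41, 1.35 and 1.30 in R-R males, against 1.18, 1.05 and 0.86 in R-P males and 1.10, 1.08 and 0.69 in P-R males. All 6 matched arrays lay above all 6 mismatched ones, the difference was 0.40 ± 0.09 (adjusted p = 0.326 in limma), and it was 0.40 both without R-P replicate 2 and without R-R replicates 1 and 3. The values of unc79 lay near the array medians of 0.82 to 0.94. Like shams and Ctr1B, unc79 was not among the probe sets that read over 2 on at least 3 arrays.

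The gene pirk, a negative regulator of the Imd immune pathway, read 1.25, 0.70 and 1.05 in P-P males and 2.80, 1.59 and 2.96 in R-R males, against 0.74, 0.40 and 0.93 in R-P males and 1.66, 0.69 and 0.72 in P-R males. Its difference of 0.87 ± 0.21 (adjusted p = 0.388 in limma) rested on R-R, and it was 0.44 without R-R replicates 1 and 3.

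Genes with negative differences did not pass either, with adjusted p of 0.326 to 0.683 in limma after Hakai. Fic, which encodes an enzyme that attaches AMP to the chaperone BiP, read 0.67 to 1.05 on the 6 matched arrays and 1.11 to 1.76 on the 6 mismatched arrays, without overlap, and differed by -0.46 ± 0.12. The lariat debranching gene ldbr differed by -0.35 ± 0.09 and was highest in R-P at 0.67, 1.04 and 0.79. The arylalkylamine N-acetyltransferase gene speck differed by -0.38 ± 0.11, CG15312 by -0.40 ± 0.12, CG12723 by -0.29 ± 0.08, CG15252 by -0.24 ± 0.07 and CG3342 by -0.23 ± 0.07. Fic, ldbr, CG12723, CG15252 and CG3342 lay near or below the array medians.

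Matched and mismatched arrays did not overlap for 29 probe sets (0.189% of those tested), 12 with matched above and 17 with matched below, and none of them was called. Beside unc79 and Fic they include CG17329 (0.685 ± 0.18), CG42691 (0.46 ± 0.14), the multidrug-resistance transporter gene Mrp4 (0.29 ± 0.08), the vacuolar ATPase gene Vha68-3 (0.33 ± 0.14), the histone mRNA stem-loop binding gene Slbp (-0.28 ± 0.10), the replication factor gene Mcm10 (-0.20 ± 0.09) and the poly(ADP-ribose) glycohydrolase gene Parg (-0.26 ± 0.09). These genes were picked from the 29 after their values were seen. How many probe sets would separate in this way by chance was not tested. The count of 29 and the lack of overlap for unc79, Fic and the other named genes are therefore descriptions and no sign of an effect of matching.

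Digestive enzymes formed the list with the highest median. Of 20 measured genes for maltases, amylases, mannosidases and other glycosidases, 0 were called in limma, 16 differed in the positive direction, and 7 (35.0%, against 4.87% of all probe sets) reached an unadjusted p under 0.05, all 7 higher in matched males. The list was drawn up with earlier results of these arrays known, so this share is a description. The median difference was 0.25, against 0.01 over all probe sets. Averaged over the list, the level was 3.20, 2.88 and 2.61 in P-P males and 3.55, 3.11 and 3.07 in R-R males, against 2.65, 2.27 and 2.39 in R-P males and 3.12, 3.06 and 2.91 in P-R males. The R-P arrays were low, although the highest of them overlapped P-P, and P-R lay within the range of the matched groups. R-P was the lowest of the 4 groups for 12 of the 20 genes (60.0%, against 29.4% of all probe sets) and R-R the highest for 15 (75.0%, against 28.9%).

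LManVI, a lysosomal alpha-mannosidase gene, had the largest difference of the list. It read 5.63, 4.98 and 3.99 in P-P males and 5.73, 5.33 and 5.20 in R-R males, against 1.68, 2.02 and 3.81 in R-P males and 5.33, 4.51 and 4.96 in P-R males. All R-P arrays lay below all others. P-R lay within the range of the matched arrays, and the difference of 1.43 ± 0.42 did not pass (adjusted p = 0.683 in limma). The related genes LManV and LManIV differed by 0.79 ± 0.31 and 0.205 ± 0.09. LManIV was dim, with group means of 0.08 to 0.48, below the array medians.

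The maltase gene Mal-A3 read 3.55, 3.06 and 2.29 in P-P males and 3.76, 2.77 and 3.20 in R-R males, against 1.53, 1.37 and 1.99 in R-P males and 3.37, 2.80 and 2.83 in P-R males. Again the R-P arrays lay below all others, and the difference was 0.79 ± 0.20 (adjusted p = 0.420 in limma). Mal-A4 differed by 0.775 ± 0.26 and Mal-A2 by 0.47 ± 0.22, and the amylase-related gene Amyrel by 0.30 ± 0.14. Mal-A4 stood at 0.475 and Amyrel at 0.10 without R-R replicates 1 and 3. At the other end of the list Mal-A5 differed by -0.23 ± 0.11.

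Split by the parents' food, the median own-food difference of the 20 genes was -0.08 in sons of poor-raised parents and -0.77 in sons of rich-raised parents. For LManVI these were -0.07 and -2.92, for Mal-A3 -0.03 and -1.61, for LManV -0.10 and -1.68, and for Mal-A4 0.10 and -1.45. Without R-P replicate 2 the number at an unadjusted p under 0.05 was 5 and the median matched-minus-mismatched difference 0.20. Without R-R replicates 1 and 3 the median was 0.19, and without all 3 arrays it was 0.13.

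**Figure D4:**
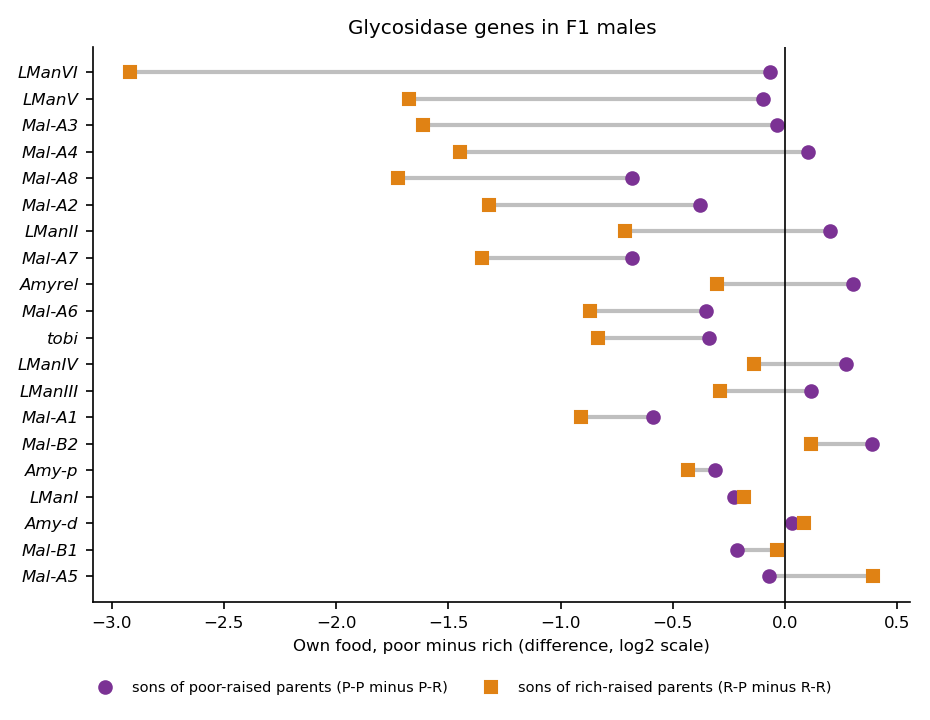
Own-food difference (poor minus rich, log2 scale) of 20 glycosidase genes in F1 males, with circles for sons of poor-raised parents and squares for sons of rich-raised parents, ordered by the difference between matched and mismatched males. Squares reach -2.92 for LManVI and lie left of the circle for 16 of the 20 genes.

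Gut proteases gave a smaller version of this. Of 32 measured genes 0 were called in limma and 3 (9.38%, against 4.87% of all probe sets) had an unadjusted p under 0.05. These 3 are trypsin genes, which encode digestive serine proteases of the midgut. The median difference of the list was 0.12, and 25 genes differed in the positive direction. R-P was lowest for 18 of 32 (56.3%, against 29.4% of all probe sets). The gene thetaTry read 5.90, 6.19 and 6.33 in P-P males and 6.44, 6.51 and 5.97 in R-R males, against 5.58, 4.28 and 4.72 in R-P males and 6.28, 6.74 and 5.99 in P-R males. The R-P arrays were below all others, and the difference of 0.625 ± 0.20 did not pass (adjusted p = 0.859 in limma). The genes lambdaTry and kappaTry differed by 0.605 ± 0.22 and 0.54 ± 0.20, and lambdaTry read 2.06, 1.69 and 1.87 in R-P males and 2.72 to 3.53 on the other 9 arrays.

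Of 20 gut lipase and sterol carrier genes 0 were called in limma and 5 (25.0%, against 4.87% of all probe sets) had an unadjusted p under 0.05. All 5 were higher in matched males. The list median was 0.04, and differences were positive for 12 of the 20 genes, and for 7 without R-R replicates 1 and 3. The sterol-binding gene Npc2d read 4.96, 4.87 and 4.52 in P-P males and 5.10, 4.72 and 4.93 in R-R males, against 3.99, 2.91 and 3.73 in R-P males and 5.26, 4.54 and 4.23 in P-R males. It was lowest on the R-P arrays and differed by 0.74 ± 0.21 (adjusted p = 0.682 in limma). Its relative Npc2e, at 0.55 to 1.30 on matched and 0.10 to 0.74 on mismatched arrays, differed by 0.48 ± 0.13. The lipase genes CG6283 and CG8093 differed by 0.93 ± 0.34 and 0.40 ± 0.18, and CG31089 by 0.25 ± 0.09 at dim group means of 0.11 to 0.46. Without R-R replicates 1 and 3 the median of the list was -0.02 and CG6283 stood at 0.165, and CG8093 stood at 0.25 without R-P replicate 2.

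Detoxification genes showed few differences. Among 77 cytochrome P450 genes, which oxidize toxins and hormones, 0 were called in limma. An unadjusted p under 0.05 was found for 5 (6.49%, against 4.87% of all probe sets), and the list median was 0.02. Cyp4ac1 read 1.97, 2.05 and 2.43 in P-P males and 2.84, 2.50 and 2.42 in R-R males, against 0.96, 1.50 and 2.22 in R-P males and 2.36, 1.99 and 1.68 in P-R males, with overlap between the sides and a difference of 0.58 ± 0.17 (adjusted p = 0.682 in limma). Cyp6a17 differed by 0.625 ± 0.30, Cyp4e3 by 0.32 ± 0.13 and Cyp6a9 by 0.29 ± 0.11, the last at dim group means of 0.37 to 0.81. Cyp4e3 stood at 0.10 without R-R replicates 1 and 3, and at 0.036 without these and R-P replicate 2. Among 70 glutathione transferase and UDP-glycosyltransferase genes, which conjugate such compounds, 0 were called in limma and 3 (4.29%) had an unadjusted p under 0.05, GstZ1 at 0.35 ± 0.15, Ugt49B1 at 0.32 ± 0.13 and GstT4 at 0.31 ± 0.15 (0.18 without R-P replicate 2). R-P was the lowest group for 33 of these 70 genes (47.1%) and for 34 of the 77 cytochrome P450 genes (44.2%), against 29.4% of all probe sets.

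CG16898 and Cyp6d2 fell after poor food in sons of both kinds of parents. CG16898 read 2.69, 2.04 and 2.98 in P-P males and 5.39, 6.13 and 5.10 in R-R males, against 1.76, 2.15 and 2.04 in R-P males and 5.27, 5.41 and 4.79 in P-R males. Poor-raised and rich-raised sons separated whatever the parents ate. Its own-food difference was -2.59 in sons of poor-raised parents (adjusted p = 8.28e-06 in limma) and -3.56 in sons of rich-raised parents (adjusted p = 9.38e-09), while matched minus mismatched was 0.485 ± 0.19 (adjusted p = 0.945), and 0.78 without R-R replicates 1 and 3. The P450 gene Cyp6d2 had own-food differences of -1.47 in sons of poor-raised parents (adjusted p = 0.0432 in limma) and -2.35 in sons of rich-raised parents (adjusted p = 3.12e-05), and matched minus mismatched was 0.44 ± 0.20 (0.71 without those 2 arrays). Arc1, whose protein assembles into capsids in neurons, did not pass in sons of poor-raised parents (-0.89, adjusted p = 0.733 in limma) and passed in sons of rich-raised parents (-2.13, adjusted p = 0.00018), and its matched-minus-mismatched difference of 0.62 ± 0.21 did not pass (adjusted p = 0.859). The lipid transfer particle gene Apoltp likewise did not pass in sons of poor-raised parents (-0.72, adjusted p = 0.320 in limma) and passed in sons of rich-raised parents (-1.33, adjusted p = 0.00024), with matched minus mismatched at 0.30 ± 0.13 (adjusted p = 0.984). For CG14125 the own-food differences were -0.48 after poor-raised parents (adjusted p = 0.998 in limma) and -2.58 after rich-raised parents (adjusted p = 0.00232), and matched minus mismatched was 1.05 ± 0.30 (adjusted p = 0.682).

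Counted over all probe sets, the own-food difference was called for 8 probe sets (0.0523%) of 5 distinct profiles in sons of poor-raised parents, all lower after poor food, and for 92 (0.601%) in sons of rich-raised parents, 20 higher and 72 lower. The difference between these 2 responses is the contrast tested here, and it was called for CG9568 alone. Without R-R replicates 1 and 3 the count in sons of rich-raised parents was 15, and without R-P replicate 2 it was 33.

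Of 91 measured cuticle and chitin-binding genes 0 were called in limma, and 38 differed in the positive and 53 in the negative direction. At an unadjusted p under 0.05, 1 was higher and 10 were lower in matched males (12.1% in all, against 4.87% of all probe sets). The list median was -0.045. R-R was the lowest group for 39 of the 91 (42.9%, against 22.7% of all probe sets). Vajk2, which encodes a chitin-associated protein, read 5.55, 4.87 and 5.0 in P-P males and 0.83, 3.84 and 1.11 in R-R males, against 4.48, 5.10 and 4.98 in R-P males and 4.35, 4.28 and 5.27 in P-R males. R-R replicates 1 and 3 were low and the other 10 arrays lay between 3.84 and 5.55. The difference of -1.21 ± 0.42 (adjusted p = 0.877 in limma) was -0.25 without those 2 arrays.

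Cpr92F, a cuticle protein gene, read 6.48, 6.38 and 6.54 in P-P males and 2.96, 5.81 and 3.04 in R-R males, against 6.21, 6.45 and 6.30 in R-P males and 5.82, 6.0 and 6.03 in P-R males. Its difference of -0.93 ± 0.31 was 0.0033 without R-R replicates 1 and 3. Acp1 differed by -0.79 ± 0.28 (-0.31 without them), Cpr97Eb by -0.69 ± 0.32 (0.11) and the chitin-binding protein gene Gasp by -0.58 ± 0.26 (0.01). The tyrosine hydroxylase gene ple, needed for cuticle tanning and dopamine, differed by -0.53 ± 0.22 and by 0.05 without them. Of 21 tanning and pigmentation genes 0 were called in limma, and 1 was higher and 2 were lower at an unadjusted p under 0.05. Without R-R replicates 1 and 3 the cuticle list held 4 higher and 2 lower, and its median was 0.01.

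The storage genes Lsp2 and Fbp2 and most muscle genes also had their lowest group mean in R-R. The prophenoloxidase genes PPO1 and PPO2, which were placed in the same list as the storage genes, had their highest group mean in R-R. Those means were dim, at 0.853 and 0.90. Muscle genes averaged 5.48 on R-R replicate 2, against 5.03 and 5.23 on replicates 1 and 3. Lsp2, a larval serum protein gene expressed in the fat body, read 6.44, 7.0 and 7.15 in P-P males and 4.20, 5.68 and 3.53 in R-R males, against 6.69, 7.28 and 6.89 in R-P males and 6.04, 6.78 and 7.13 in P-R males. All 3 R-R arrays were below the other 9, and the difference of -1.14 ± 0.26 (adjusted p = 0.326 in limma) was -0.53 without R-R replicates 1 and 3. Of the 7 measured genes of the larval serum and storage list 0 were called in limma. At an unadjusted p under 0.05, 1 was higher (PPO1, 0.25 ± 0.11, and 0.275 without those arrays) and 1 lower (Lsp2).

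Among 24 muscle contractile genes 0 were called in limma and 4 (16.7%, against 4.87% of all probe sets) had an unadjusted p under 0.05, all 4 lower. They were the actin genes Act88F (-0.57 ± 0.26) and Act79B (-0.28 ± 0.10), the flightin gene fln of the flight muscle (-0.455 ± 0.20) and the myosin light chain gene Mlc1 (-0.24 ± 0.11). Act88F read 5.92, 8.39 and 6.78 in R-R males and 8.02 to 8.59 on the other 9 arrays. R-R was the lowest group for 17 of the 24 genes (70.8%, against 22.7% of all probe sets). Without R-R replicates 1 and 3, Act88F differed by 0.11, fln by 0.05, Act79B by -0.16 and Mlc1 by -0.047, and 0 of the 24 had an unadjusted p under 0.05.

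Oxidative phosphorylation genes encode the respiratory chain and ATP synthase. Of 60 measured, 0 were called in limma and 2 (3.33%, against 4.87% of all probe sets) had an unadjusted p under 0.05. Both were lower (ATPsyndelta at -0.25 ± 0.10 and UQCR-Q at -0.15 ± 0.07). Differences were negative for 50 of the 60, against 7095 of all 15309 probe sets. R-R was the lowest group for 53 (88.3%, against 22.7% of all probe sets). The list median was -0.067, and it was 0.027 without R-R replicates 1 and 3, where 40 of the 60 differed in the positive direction and ATPsyndelta stood at -0.095. The level of muscle and cuticle genes and of Lsp2 on R-R replicates 1 and 3 moved with these lists, and its part in them was not tested.

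The lists for nutrient signalling and metabolism held no call. Of 26 insulin and TOR genes 0 were called in limma, and 1 was higher and 1 lower at an unadjusted p under 0.05. Akt, the kinase downstream of the insulin receptor, read 3.55, 4.08 and 3.71 in P-P males and 3.61, 3.64 and 3.71 in R-R males, against 3.17, 3.51 and 3.60 in R-P males and 3.33, 3.35 and 3.37 in P-R males, with 1 mismatched array above the lowest matched one and a difference of 0.33 ± 0.13 (adjusted p = 0.970 in limma). The insulin-like peptide gene Ilp7 differed by -0.245 ± 0.08 at a dim level of 0.10 to 0.61. Of 31 carbohydrate metabolism genes 0 were called in limma, and 1 was higher (the trehalase gene Treh, 0.23 ± 0.08) and 1 lower (the phosphoglycerate mutase gene Pglym78, -0.265 ± 0.10, and -0.16 without R-R replicates 1 and 3). Of 27 lipid storage and transport genes 0 were called in limma and 2 were higher (Apoltp and the acyltransferase gene Gpat4, 0.25 ± 0.11), and of 31 amino acid and nitrogen genes 0 were called, with 1 higher (hgo, the homogentisate dioxygenase gene, 0.31 ± 0.11) and 1 lower (the serine synthesis gene aay, -0.28 ± 0.12). Differences were positive for 23 of the 27 lipid genes (median 0.06), and for 16 without R-R replicates 1 and 3. They were positive for 21 of the 31 amino acid and nitrogen genes, 14 of the 26 insulin and TOR genes and 15 of the 31 carbohydrate genes. Over all probe sets 8195 of 15309 were positive.

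Of 40 immune effector genes 0 were called in limma, and pirk, the Bomanin gene BomS4 (0.28 ± 0.13) and the antifungal peptide gene Mtk (-0.72 ± 0.35) had an unadjusted p under 0.05. Mtk read 4.04 on P-R replicate 3 and 0.08 to 0.55 on the other 11 F1 arrays. The stress gene TotC read 1.58, 0.05 and 0.91 in P-P males and 3.20, 0.31 and 0.73 in R-R males, against -0.01, 0.14 and -0.11 in R-P males and 0.37, 0.31 and 0.38 in P-R males, and 4 of the 6 matched arrays lay above all mismatched ones, with a difference of 0.95 ± 0.39 (0.40 without R-R replicates 1 and 3). It was the one gene with an unadjusted p under 0.05 among 14 Turandot and heat shock genes, of which 0 were called in limma.

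The lists of chromatin and piRNA, clock, phototransduction, neuronal activity, Malpighian tubule and odorant-binding protein genes held no call either. Of 35 chromatin and piRNA genes 0 were called in limma and 1 had an unadjusted p under 0.05 (Hen1, the methyltransferase of small RNAs, 0.215 ± 0.10). R-P was the highest group for 21 of the 35 (60.0%, against 25.1% of all probe sets), and the list median of -0.065 was -0.016 without R-P replicate 2, the array with ovary transcripts. Of 14 clock genes vri, a transcription factor of the clock, reached an unadjusted p under 0.05 at 0.35 ± 0.15, and it stood at -0.0033 without R-R replicates 1 and 3. Single genes did so among 18 phototransduction genes (rdgB, -0.205 ± 0.10) and 8 capsid and neuronal activity genes (Arc1), 2 among 20 Malpighian tubule genes (Irk2, 0.255 ± 0.11, and List, -0.32 ± 0.12) and 3 among 41 odorant-binding protein genes (Obp56e, -0.60 ± 0.22, Obp58d, -0.195 ± 0.09, and Obp99b, -0.62 ± 0.28). Irk2 stood at 0.135 without R-R replicates 1 and 3, List at -0.14, Hen1 at 0.062, Obp56e at -0.23 and Obp99b at -0.285, and without these and R-P replicate 2 Hen1 stood at 0.016 and Obp99b at -0.11. In these lists, too, 0 genes were called in limma.

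Over the 22 lists, which hold 727 measured genes in sum, medians ran from -0.0875 for muscle genes to 0.25 for glycosidases. Without R-P replicate 2 they ran from -0.079 to 0.20, and without R-R replicates 1 and 3 from -0.075 to 0.19.

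**Figure D5:**
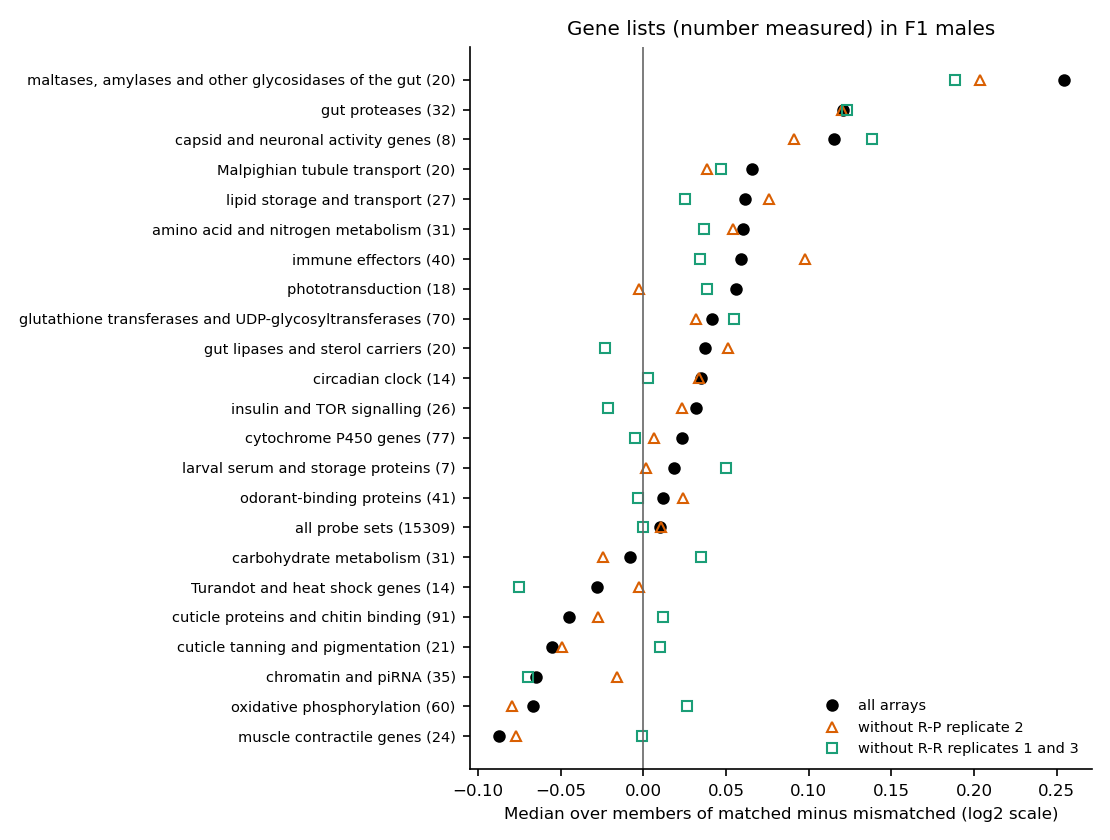
Median over the members of each gene list of the matched-minus-mismatched difference (log2 scale) in F1 males, with all arrays (filled circles), without R-P replicate 2 (triangles) and without R-R replicates 1 and 3 (squares). Glycosidases lie highest under all 3 sets of arrays. Muscle, oxidative phosphorylation and cuticle genes move to about 0 without R-R replicates 1 and 3. Those arrays were set aside because cuticle and muscle genes were low on them, so the move of these 2 lists follows from that choice.

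In F2 males, matching of the own food with that of the grandparents can be taken the same way, with P-R-P and R-R-R matched and R-R-P and P-R-R mismatched. In limma 0 probe sets were called there (0%), with 1169 at an unadjusted p under 0.05 (7.64%), 415 higher and 754 lower in matched males. P-R-R replicate 2, a mismatched array, averaged 2.61 for ovary and yolk genes, against 0.543 to 0.693 on the 11 other F2 arrays. Without it, an alternative chosen after seeing the data, 0 probe sets were called in limma and 1039 had an unadjusted p under 0.05 (6.79%), 376 higher and 663 lower, and its part in the F2 values was not tested further. Tested directly, the F1 contrast minus the F2 contrast was called for 0 probe sets (0%) in limma, with 951 at an unadjusted p under 0.05. CG9568 differed by 1.47 ± 0.20 in F1 and by -0.11 ± 0.20 in F2, and the difference between the generations of 1.58 ± 0.29 did not pass (adjusted p = 0.138 in limma). For CG5399 the values were 0.845 ± 0.15 in F1 and 0.18 ± 0.15 in F2, and for LManVI 1.43 ± 0.42 in F1 and -0.27 ± 0.42 in F2. The glycosidase list had a median of 0.25 in F1 and 0.15 in F2, and the gut protease list 0.12 in F1 and -0.04 in F2.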

How the data were processed

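Per the submitters' processing notes, the authors used GCRMA to turn the scanned arrays into the deposited log2 values, 1 for each probe set on each array. Neither its version nor the log base is stated; log2 is assumed, and natural logarithms would make each difference 1.44 times larger. No raw intensities were used. Of 15309 probe sets, 13441 have 1 gene symbol in the platform annotation, 555 several and 1313 none; the last 2 kinds were tested but not named. In all, 553 share every value with another probe set. Using limma 3.58.1 (R 4.3.3), 10 group means were estimated from 30 arrays, p-values were adjusted by Benjamini-Hochberg over 15309 probe sets, and an adjusted p under 0.05 was called. The fit was tested on simulated data. Precision is limited by having 3 arrays per group. Genes named are those called, up to 6 more per direction by smallest p with all arrays and without R-P replicate 2, up to 3 members of smallest p per list, and genes known from earlier results. Further list members at an unadjusted p under 0.05 were named after their values were seen. The contrast, gene lists and tests were chosen with earlier results of these data known. Replicate numbers were not used to pair samples in the main fit, and whether they mark a shared batch is not stated. Within-group deviations of same-numbered arrays correlated at -0.0894 to 0.114 over 18 pairs of arrays, 1 over 0.1. Arrays of different numbers correlated at -0.117 to 0.102. These correlations run over all probe sets, so they cannot exclude a shared effect in some genes.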

Additional observations from a re-analysis of the deposited data

Results flagged for a closer look

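CG9568 was singled out because its response to the own food differed between sons of poor-raised and sons of rich-raised parents by the test of the difference itself. Matched minus mismatched was 1.47 ± 0.20 on the log2 scale (adjusted p = 0.00168 in limma), with all 3 R-P arrays below the other 9. The call was lost without R-R replicates 1 and 3, where cuticle and muscle genes were low (1.34 ± 0.25, adjusted p = 0.202 in limma), without these and R-P replicate 2 (adjusted p = 0.345), and with the 12 F1 arrays alone (adjusted p = 0.0898). The part of those arrays in the call was not tested further.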

How the results depend on the processing

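The count of 1 probe set for matched minus mismatched in F1 was 0 without R-R replicates 1 and 3, 0 without these and R-P replicate 2, and 0 with the 12 F1 arrays alone. It was 6 with quantile normalization, 2 with a filter on dim probe sets (4720 tested), 6 with array weights and 7 with trended, robust eBayes. With the replicate number as a block it was 6, namely CG9568 (adjusted p = 3.14e-04 in limma), CG5399 and the 4 probe sets of shared values. What the numbers stand for is not stated, and 6 of 12 arrays correlated best with their own number. Leaving out 1 array gave 1 to 11, with 11 without R-R replicate 2 (CG9568, CG5399, pirk, Lsp2, Nplp3, ple, Cpr92F and the 4), 5 without P-R replicate 3 and 2 without R-P replicate 1. The F2 count of 0 ranged from 0 to 2 when 1 array was left out. The F1 minus F2 count of 0 was 1 with the dim filter, 1 with the block, and 0 to 2 with 1 array left out. The alternatives for the next 4 counts were chosen after seeing the data. Own food on average (93) gave 45 without R-R replicates 1 and 3, 33 without all 3 arrays and 59 to 123 with 1 array left out. Parental food (3) gave 0, 1 and 2 to 21 in the same order, 0 with F1 arrays alone, 1 with quantile normalization and 6 with array weights. Own food after poor-raised parents (8) gave 5 with the dim filter, 19 with array weights and 2 to 10 with 1 array left out. Own food after rich-raised parents (92) gave 41 without the 2 arrays with ovary transcripts, 15 without R-R replicates 1 and 3, 12 without all 3 and 32 to 114 with 1 array left out. Direction changed without R-R replicates 1 and 3, and without all 3 arrays, for Cpr92F (0.0033 and 0.036), Cpr97Eb (0.11 and 0.15), ple (0.048 and 0.093), Act88F (0.11 and 0.12), fln (0.052 and 0.068) and vri (-0.0033 and -0.057), and for Fbp2 without all 3 (0.0067). The causes were not tested. No scaling moved the median of all probe sets by over 0.1.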

Other observations

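Of the 11 probe sets with a difference over 1 in size, 5 genes and 1 probe set without a symbol are not described above. CG13482 read 6.29, 4.83 and 4.58 in P-P males and 6.72, 5.38 and 6.15 in R-R males, against 4.41, 3.68 and 4.18 in R-P males and 4.66, 5.21 and 5.08 in P-R males, a difference of 1.12 ± 0.28 (adjusted p = 0.388 in limma). CG10912 differed by 1.06 ± 0.35 and the C-type lectin gene lectin-37Da by 1.01 ± 0.33, and both were high on P-P replicate 1 (3.66 and 5.16) and lower on P-P replicates 2 and 3 (1.20 and 0.81 for CG10912, 2.84 and 2.65 for lectin-37Da). The yolk protein gene Yp2 differed by -1.30 ± 1.09 and read 8.10 on R-P replicate 2, against -0.06 to 0.50 on the other 11 F1 arrays, and Yp3 differed by -1.17 ± 0.74 and read 5.28 there, against 0.50 to 1.93. The probe set without a gene symbol read 8.62 on R-R replicate 1 and 0.61 to 1.18 on the other 11, which gave 1.42 ± 0.95.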
